A study of Mus musculus with 9 samples.

Results

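Growth hormone signalling in the liver was described through 10 genes: the receptor and its transducer (Ghr, Stat5b), the secreted insulin-like growth factor (IGF) genes Igf1 and Igfals, the feedback inhibitors Socs2 and Cish, the repressors Bcl6 and Cux2, and the hormone-dependent targets A1bg and Mup20. These 10 genes, of 27179 in the count table, were chosen by name, with the difference between the genotypes in these same libraries already known. Their values are therefore given as a description, with no p-value, and which of them passed the thresholds set over all genes is stated without being read as a test. Bulk RNA sequencing covered 9 liver libraries of mice after 12 weeks of high-fat diet (HFD), namely 5 of the genotype Apoe-/- and 4 that also lacked Mif-2 (Mif-2-/-Apoe-/-). The mice are taken as female, since the paper describes its main 12-week experiment in females. Its text on this sequencing does not name the sex. Mif-2, listed under the symbol Ddt, encodes the cytokine MIF-2. All 9 livers lacked Apoe and were on the diet, so that neither a liver with Apoe nor one on chow is part of the comparison. The methods give an age of 8 weeks for the mice of the genetic experiments, at the start of the diet, and both deficiencies were present in the whole animal, not in hepatocytes alone. RNA came from frozen sections, several of which were combined for a library.

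Growth hormone reaches the liver in a sex-dependent rhythm, with separated pulses in males and a nearly continuous supply in females. Its receptor activates the kinase JAK2 and through it STAT5B, which enters the nucleus and switches on Igf1, the gene for the acid-labile subunit Igfals, and the inhibitors Socs2 and Cish, which restrain the receptor. BCL6, higher in male liver, and CUX2, higher in female liver, are repressors that oppose or redirect STAT5B at sex-biased genes.

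STAT5 proteins bind the palindrome TTCNNNGAA, which reads the same on both strands. It was searched in the 250 bases upstream of the RefSeq gene starts (mouse build GRCm38.p6). Of the 10 genes, 8 had such windows, 14 in all, and Socs2 and Mup20 were without an entry in the table used. The letters were present in 5 of the 14 windows, belonging to 3 genes, Igfals, Bcl6 and A1bg. Among all genes they were present in 2306 of 32851 windows (7.02%), or in 2197 of 27025 genes (8.13%). A match of letters is a description of the window and not a measured binding site. One window of each of the 3 genes is printed, 5′ to 3′ on the strand of the gene, with the palindrome in capitals, since these are the members in which it occurs and A1bg was the member with the largest difference between the genotypes.
A1bg, chr15:60921271-60921520, minus strand: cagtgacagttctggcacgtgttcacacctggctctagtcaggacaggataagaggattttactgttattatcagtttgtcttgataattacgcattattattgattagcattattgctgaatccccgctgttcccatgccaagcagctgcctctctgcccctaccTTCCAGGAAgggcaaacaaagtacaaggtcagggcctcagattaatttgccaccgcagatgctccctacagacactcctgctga
Igfals, chr17:24877981-24878230, plus strand: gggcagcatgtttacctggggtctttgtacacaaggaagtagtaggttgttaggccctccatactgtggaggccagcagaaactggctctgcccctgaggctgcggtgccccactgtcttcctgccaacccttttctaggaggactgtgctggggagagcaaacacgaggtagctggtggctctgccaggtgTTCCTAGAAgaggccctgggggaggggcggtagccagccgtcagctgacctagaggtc
Bcl6, chr16:23988853-23989102, minus strand: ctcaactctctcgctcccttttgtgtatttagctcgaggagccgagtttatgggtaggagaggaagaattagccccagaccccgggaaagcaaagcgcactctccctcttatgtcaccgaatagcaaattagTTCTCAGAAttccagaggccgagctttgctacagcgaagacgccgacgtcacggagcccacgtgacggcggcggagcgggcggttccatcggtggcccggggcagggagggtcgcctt
Counted from the gene start, the palindrome began at position -84 in A1bg, at -58 in this window of Igfals and at -118 in this window of Bcl6. A second start of Igfals had it at -236, and a second start of Bcl6 had it at -168, -122 and -88.

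Total counts were between 2318148 and 10764182 per library. Ddt, the deleted gene, was at 233 to 972 CPM (counts scaled to a common library size) in the Apoe-/- libraries and at 2.51 to 5.49 CPM in the Mif-2-/-Apoe-/- libraries, in accord with every label. The 12 hepatocyte markers were detected in every group, with a summed level of 100872 to 174133 CPM of all counts in Apoe-/- and 89402 to 189336 in Mif-2-/-Apoe-/- livers (exact two-sided permutation test, p = 0.230, adjusted 0.460 over 6 marker lists). A pair of libraries lay apart from the rest of their genotype. Apoe-/- replicate 5 had a sum of 100872 where its other libraries had 157209 to 174133, and Mif-2-/-Apoe-/- replicate 2 had 189336 where its other libraries had 89402 to 113652. For the markers of Kupffer, sinusoidal endothelial, stellate and bile duct cells and of lymphocytes and neutrophils, the same exact permutation test gave adjusted p of 0.460 to 0.984. All of these markers were detected apart from Ly6g, 1 of 8 lymphocyte and neutrophil markers, which was at 0 in all libraries. A sum is set mostly by its most abundant genes, and single markers could differ from it. Of the 7 Kupffer markers 2 were higher on average in Mif-2-/-Apoe-/- livers. Mean levels in Apoe-/- and Mif-2-/-Apoe-/- livers were 835 and 852 CPM for Clec4f and 470 and 205 CPM for Cd5l. Of 6 hepatocyte markers tested 2 were higher, Pck1 (834 and 1886 CPM, ranges apart) and, by little, Cps1 (120 and 122 CPM). The others were lower on average with overlapping ranges, among them Serpina1a (3602 and 1804 CPM), Ahsg (7123 and 3954 CPM) and Fgb (815 and 448 CPM). In these bulk samples, fewer cells of a type and less RNA per cell cannot be told apart.

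A1bg was the member that differed most between the genotypes. Mup20, Igf1 and Igfals were lower on average in Mif-2-/-Apoe-/- livers and Cux2 was higher, each with overlapping ranges, while Ghr, Stat5b, Socs2, Cish and Bcl6 differed on average by an amount close to their SE. Levels are in CPM after trimmed mean of M-values (TMM) normalization, without the 10 most abundant genes. Fold changes are Mif-2-/-Apoe-/- over Apoe-/- on the log2 scale, from edgeR's quasi-likelihood fit over all 16860 genes tested, with their standard error (SE). The plot of CPM by library shows the 10 genes side by side.

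**Figure D1:**
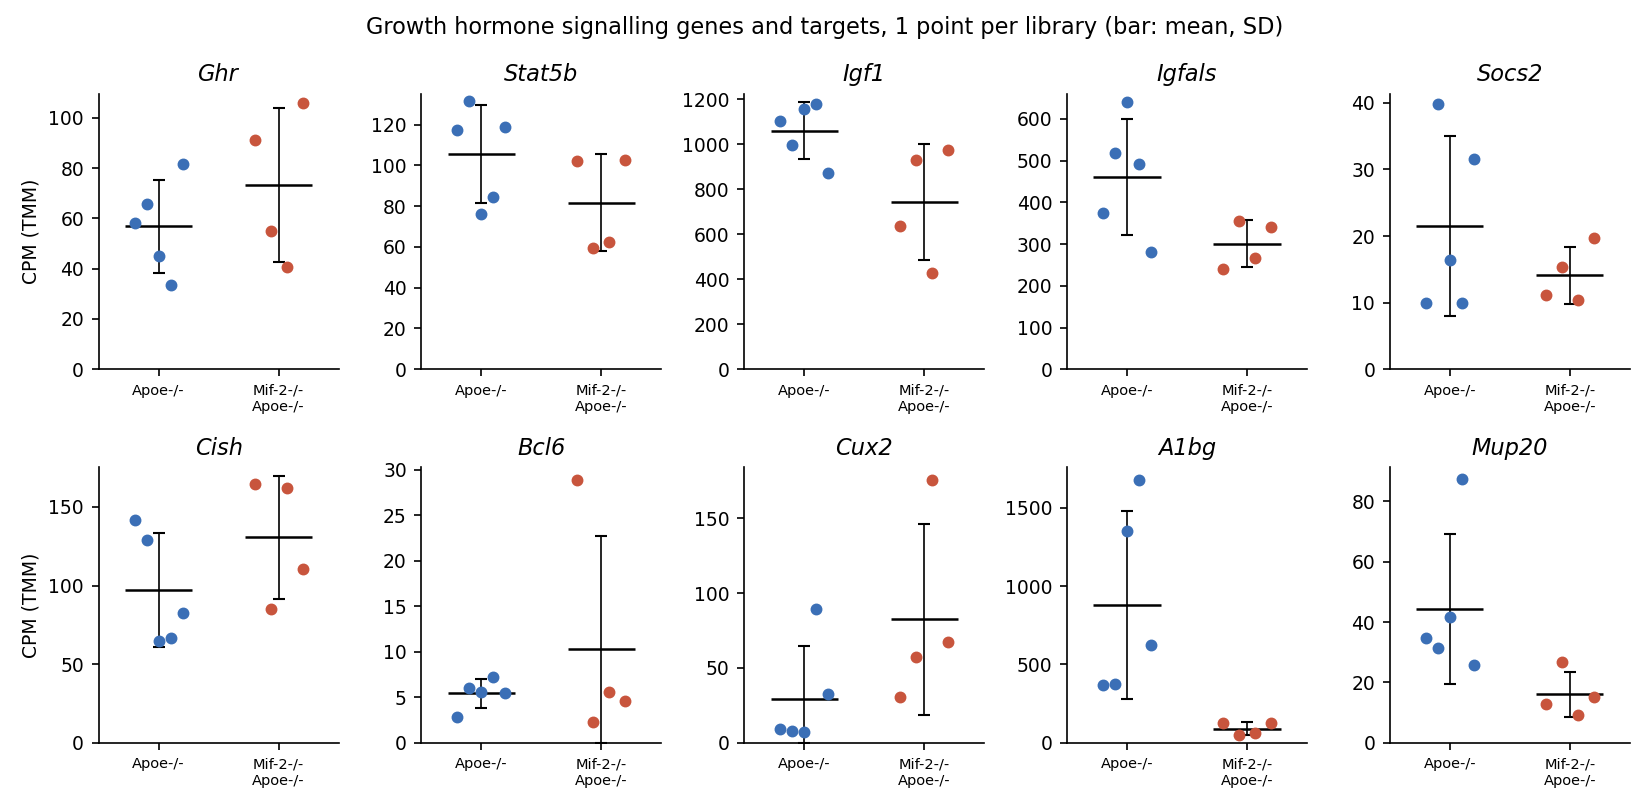
CPM (vertical axis, from 0, own scale for each gene) of the 10 growth hormone genes in 5 Apoe-/- and 4 Mif-2-/-Apoe-/- livers, with 1 point per library, a horizontal bar at the mean and whiskers of 1 SD that are drawn only down to 0. The ranges are apart for A1bg (367 to 1678 against 49.4 to 129 CPM) and overlap for the other 9 genes.

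Ghr, the cell-surface receptor for growth hormone (Entrez 14600, chr15:3317755-3583352), was at 58.3, 65.7, 45.1, 33.5 and 81.5 CPM in Apoe-/- livers, replicates 1 to 5. In Mif-2-/-Apoe-/- livers, replicates 1 to 4, it was at 91.3, 55.1, 40.8 and 106 CPM. The ranges overlapped, with the highest pair of values in Mif-2-/-Apoe-/- replicates 4 and 1. The means were 56.8 ± 18.5 (SD, n = 5) and 73.3 ± 30.5 CPM (SD, n = 4), with a log2 fold change of 0.37 (SE 0.39). Stat5b, the transcription factor that carries the signal to the nucleus (Entrez 20851, chr11:100780731-100859004), was at 117, 132, 76.1, 84.3 and 119 CPM in Apoe-/- livers. It was at 102, 59.6, 62.5 and 102 CPM in Mif-2-/-Apoe-/- livers. Again the ranges overlapped, and the means of 106 ± 24.1 (SD, n = 5) and 81.6 ± 23.8 CPM (SD, n = 4) gave a log2 fold change of -0.37 (SE 0.32). The receptor and its transducer thus had average differences of opposite sign, each close to 1 SE.

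Igf1 encodes the hormone that the liver releases into the circulation under growth hormone (Entrez 16000, chr10:87858265-87937047). It was at 1102, 997, 1156, 1177 and 871 CPM in Apoe-/- livers. Mif-2-/-Apoe-/- livers had 638, 931, 429 and 973 CPM. Every Apoe-/- library other than replicate 5 was above all Mif-2-/-Apoe-/- libraries, and Apoe-/- replicate 5 was below the 2 highest of them, replicates 2 and 4. The means were 1060 ± 127 (SD, n = 5) and 743 ± 257 CPM (SD, n = 4), with a log2 fold change of -0.51 (SE 0.30).

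Igfals, the acid-labile subunit that holds IGF-1 in its circulating complex (Entrez 16005, chr17:24877844-24882011), was at 374, 517, 641, 491 and 281 CPM in Apoe-/- livers. It was at 240.2, 356, 266 and 340.0 CPM in Mif-2-/-Apoe-/- livers. As for Igf1, 4 Apoe-/- libraries were above every Mif-2-/-Apoe-/- library and the exception was replicate 5. The means were 461 ± 138 (SD, n = 5) and 301 ± 56.1 CPM (SD, n = 4), with a log2 fold change of -0.62 (SE 0.31). Apoe-/- replicate 5 had the lowest level of its genotype in both genes and in the hepatocyte sum. Mif-2-/-Apoe-/- replicate 2, with the highest sum of its genotype, had the highest Igfals, while Igf1 was highest in replicate 4. With the hepatocyte sum as a covariate the fold changes were -0.31 for Igf1 and -0.34 for Igfals. Without Apoe-/- replicate 5 and Mif-2-/-Apoe-/- replicate 2 they were -0.80 and -0.93, and neither gene was called under either setting. Whether either gene follows the hepatocyte markers was not tested.

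Socs2, an inhibitor that marks the receptor for degradation (Entrez 216233, chr10:95383903-95417321), was at 9.88, 39.8, 16.4, 9.88 and 31.6 CPM in Apoe-/- livers. It was at 11.2, 15.3, 10.3 and 19.7 CPM in Mif-2-/-Apoe-/- livers. All values of Mif-2-/-Apoe-/- livers lay inside the Apoe-/- range. The means were 21.5 ± 13.5 (SD, n = 5) and 14.1 ± 4.29 CPM (SD, n = 4), with a log2 fold change of -0.61 (SE 0.60). Cish, which competes for docking sites on the receptor (Entrez 12700, chr9:107296659-107302784), was at 142, 129, 64.8, 66.7 and 82.5 CPM in Apoe-/- livers. It was at 165, 85.2, 162 and 110.4 CPM in Mif-2-/-Apoe-/- livers. Here the upper values belonged to Mif-2-/-Apoe-/- replicates 1 and 3, and the ranges overlapped. The means were 97.0 ± 36.2 (SD, n = 5) and 131 ± 39.3 CPM (SD, n = 4), with a log2 fold change of 0.43 (SE 0.35). The 2 inhibitors, both induced by STAT5B, had average differences of opposite sign.

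Bcl6, the repressor that is higher in male liver (Entrez 12053, chr16:23965050-23988866), was low, at 2.88, 6.03, 5.63, 7.26 and 5.42 CPM in Apoe-/- livers. It was at 28.9, 2.27, 5.54 and 4.57 CPM in Mif-2-/-Apoe-/- livers. Only Mif-2-/-Apoe-/- replicate 1 was above the Apoe-/- range. The means were 5.45 ± 1.60 (SD, n = 5) and 10.3 ± 12.4 CPM (SD, n = 4), and the log2 fold change was 0.93 (SE 0.86), which became -0.38 (SE 0.93) without replicate 1 of Mif-2-/-Apoe-/-.

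Cux2, a homeobox repressor that is higher in female liver (Entrez 13048, chr5:121857962-122050415), was at 9.47, 7.91, 7.51, 89.7 and 32.3 CPM in Apoe-/- livers. It was at 30.5, 57.4, 176 and 67.4 CPM in Mif-2-/-Apoe-/- livers. Of the Apoe-/- libraries, 3 were below every Mif-2-/-Apoe-/- library, while Apoe-/- replicate 4 was above 3 of the 4. The means were 29.4 ± 35.3 (SD, n = 5) and 82.7 ± 63.9 CPM (SD, n = 4), with a log2 fold change of 1.49 (SE 0.73). The value rested in part on single libraries, being 2.49 (SE 0.63) without Apoe-/- replicate 4 and 0.81 (SE 0.75) without Mif-2-/-Apoe-/- replicate 3.

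A1bg encodes a secreted plasma protein of the immunoglobulin superfamily that is more abundant in female than in male mouse liver (Entrez 117586, chr15:60917589-60921270). It was at 367, 374, 1352, 1678 and 623 CPM in Apoe-/- livers. Mif-2-/-Apoe-/- livers had 129, 49.4, 59.2 and 125 CPM. The ranges did not overlap. Within Apoe-/- livers, replicates 3 and 4 stood above the rest. The means were 879 ± 601 (SD, n = 5) and 90.6 ± 42.1 CPM (SD, n = 4), with a log2 fold change of -3.27 (SE 0.55), or 9.67-fold lower in Mif-2-/-Apoe-/- livers. The difference was as large without the libraries that lay apart in the hepatocyte markers (-3.28). It was no longer called by edgeR without Apoe-/- replicate 3 (-3.17), Apoe-/- replicate 4 (-2.96), or Mif-2-/-Apoe-/- replicates 1 (-3.49), 3 (-3.12) or 4 (-3.46), nor with the hepatocyte sum as a covariate (-3.19).

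Mup20, or darcin, is a major urinary protein that is more abundant in males (Entrez 381530, chr4:62011337-62054143). It was at 34.8, 31.4, 41.8, 87.5 and 25.7 CPM in Apoe-/- livers. Mif-2-/-Apoe-/- livers had 13.0, 26.7, 9.32 and 15.1 CPM. Of the Apoe-/- libraries, 4 were above every Mif-2-/-Apoe-/- library, and the overlap came from Apoe-/- replicate 5 and Mif-2-/-Apoe-/- replicate 2. The means were 44.2 ± 24.9 (SD, n = 5) and 16.0 ± 7.50 CPM (SD, n = 4), with a log2 fold change of -1.47 (SE 0.52). It was -1.03 with the hepatocyte sum as a covariate and -2.07 without those 2 libraries, where edgeR called it and 5.34% of all genes lower. Thus A1bg and Mup20, with opposite sex bias, were both lower on average in Mif-2-/-Apoe-/- livers.

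**Figure D2:**
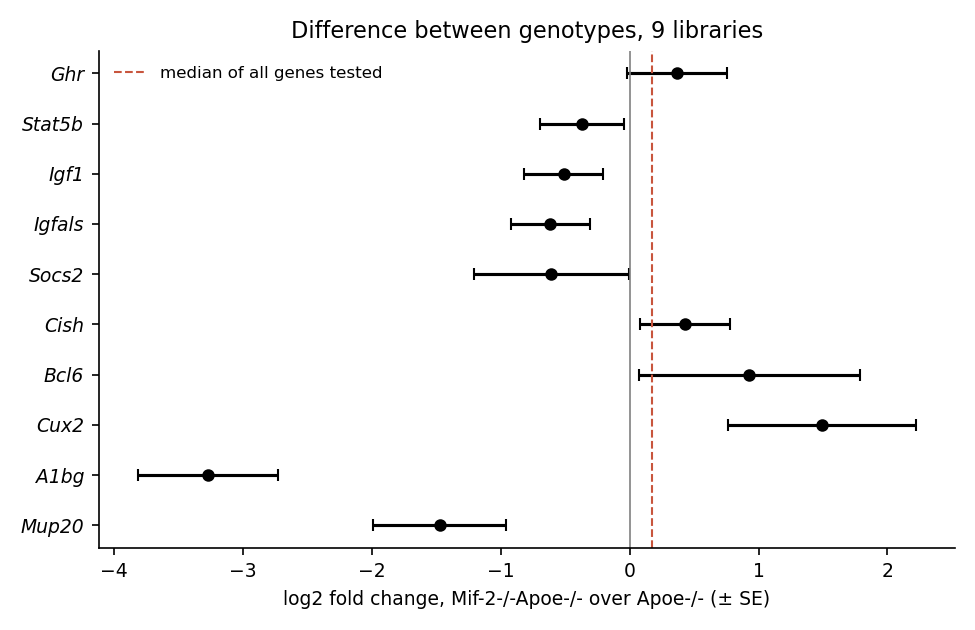
Log2 fold change, Mif-2-/-Apoe-/- over Apoe-/- (horizontal axis), of the 10 growth hormone genes from the fit of 9 libraries, with points for the estimate and lines of 1 SE to either side. A1bg at -3.27 lies farthest from 0, and the dashed line is the median of all genes tested, 0.17.

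At an adjusted p under 0.05, edgeR called 1 of the 10 genes, A1bg, lower in Mif-2-/-Apoe-/- livers, and none higher. Over all 16860 genes tested, 22 were called (0.13%), 10 of them lower (0.0593%) and 12 higher (0.0712%). DESeq2 called A1bg alone as well, where it called 353 of 14030 genes with an adjusted p lower (2.52%) and 386 higher (2.75%). The ranges of the genotypes did not overlap for 1 of the 10 genes and for 719 of all genes tested (4.26%). Since the genes were chosen with this contrast known, nothing is read from these counts. The fold changes were above 0 for 4 and below 0 for 6 of the 10 genes, with a median of -0.44 beside 0.17 over all genes tested. Under another scaling, for sparse counts (TMMwsp), these medians were -0.62 and -0.0015.

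To compare the genes with each other, CPM were divided by the length of all exons of each gene. This length joins the exons of all annotated transcripts and can exceed that of a single transcript, so the order of the genes depends on this choice. In Apoe-/- livers A1bg had the highest median, 259.6 CPM per kb (range 153 to 699), followed by Igfals with 155 (88.6 to 202) and Igf1 with 111 (87.9 to 119). Mup20 came next with 37.5 (27.8 to 94.3), and these 4 neighbours overlapped each other in turn. Stat5b had 21.2 (13.7 to 23.7) and Cish 12.8 (10.1 to 22.1), the first below the range of Mup20 and the 2 overlapping each other. Ghr, with 6.44 (3.70 to 9.0), was below the range of Cish. The ranges of Socs2 at 1.72 (1.04 to 4.18), Cux2 at 0.94 (0.75 to 8.90) and Bcl6 at 0.84 (0.43 to 1.08) each overlapped the gene before.

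In Mif-2-/-Apoe-/- livers the order changed at several places. Igfals was first with 95.7 CPM per kb (75.8 to 112) and Igf1 second with 79.2 (43.3 to 98.2). A1bg followed with 38.3 (20.6 to 53.8), below the range of Igfals but overlapping that of Igf1. Cish with 21.2 (13.3 to 25.7), Mup20 with 15.1 (10.1 to 28.8) and Stat5b with 14.8 (10.8 to 18.5) overlapped. Ghr had 8.08 (4.51 to 11.7) and Cux2 6.19 (3.02 to 17.4), ahead of Socs2 with 1.39 (1.08 to 2.06) and Bcl6 with 0.75 (0.34 to 4.31). Cux2 and Socs2 did not overlap in Mif-2-/-Apoe-/- livers, while they did in Apoe-/- livers.

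**Figure D3:**
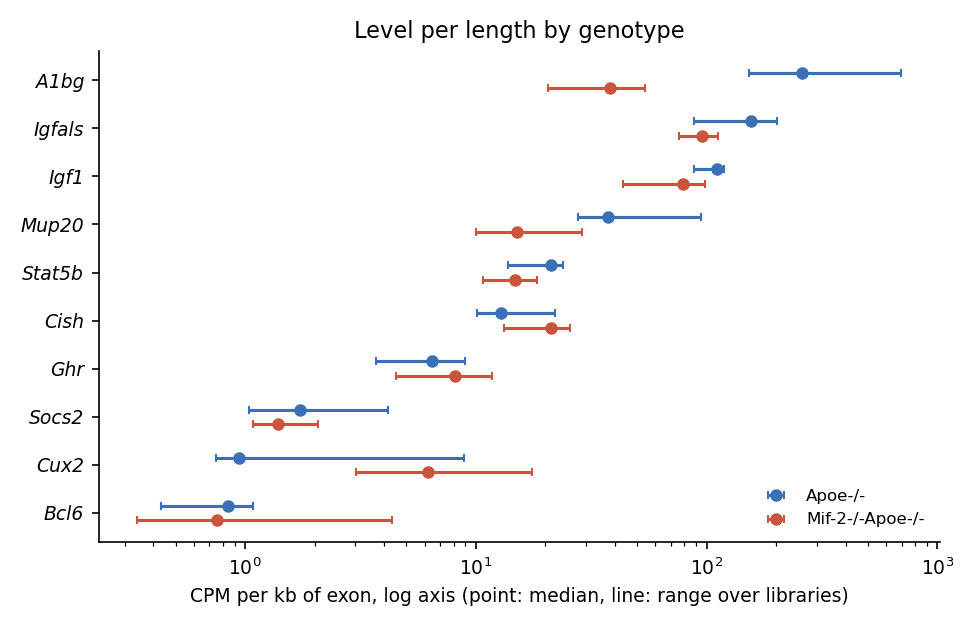
Level per length of the 10 genes in CPM per kb of exon (horizontal log axis), with a point at the median and a line over the range of 5 Apoe-/- (blue) and 4 Mif-2-/-Apoe-/- (red) libraries. A1bg is first in Apoe-/- livers at a median of 259.6 and behind Igfals and Igf1 in Mif-2-/-Apoe-/- livers at 38.3.

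Reads of similar genes could be assigned in part to each other, since the handling of such reads is not given in the sources used here. Of the 100-base stretches of Mup20 transcripts, 38.8% also occurred in transcripts of another gene, the pseudogene Mup-ps19, which makes its level uncertain. The share was 6.84% for A1bg, 6.75% for Cish, 4.79% for Stat5b, where the other gene was Stat5a, and 2.31% for Socs2. It was 0 for Ghr, Igf1, Igfals, Bcl6 and Cux2.

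Further genes of the pathway were taken as a list of 19, of which Ghr, Stat5b, Socs2, Cish, Bcl6 and Cux2 are also members. None of the 19 was called by edgeR or DESeq2 in either direction, beside 0.13% of all genes by edgeR. At an unadjusted p under 0.05, edgeR had 1 lower and none higher, where all genes had 6.52% lower and 8.99% higher. The median of the 19 genes was 0.37, with 12 above and 7 below 0, beside 0.17 over all genes (9532 above and 7328 below 0). With TMMwsp it was 0.20, with 11 above and 8 below 0, beside -0.0015 over all genes.

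Prlr, the prolactin receptor, a relative of the growth hormone receptor, was at 119, 141, 347, 171 and 481 CPM in Apoe-/- and at 342, 510.0, 599 and 244 CPM in Mif-2-/-Apoe-/- livers. The ranges overlapped (log2 fold change 0.75, SE 0.43, edgeR adjusted p = 0.422). Irs2, an adaptor of insulin and cytokine receptors, was at 4.12, 8.58, 2.35, 0 and 49.4 CPM in Apoe-/- and at 20.1, 2.27, 63.0 and 10.5 CPM in Mif-2-/-Apoe-/- livers. It varied more within than between the genotypes (log2 fold change 0.90, SE 1.17, edgeR adjusted p = 0.767).

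The IGF axis, with ligands, binding proteins, their proteases and receptors, was a list of 17 that includes Igf1 and Igfals. None was called by edgeR, beside 0.13% of all genes, or by DESeq2, which gave no adjusted p for 2 of them. At an unadjusted p under 0.05 edgeR had 1 higher, Igf2r, and none lower, where all genes had 8.99% higher and 6.52% lower. The median of the 17 genes was 0.14 (9 above and 8 below 0) and turned to -0.07 with TMMwsp, close to that of all genes under either scaling. Igfbp3, the partner of the acid-labile subunit, was at 33.2, 36.1, 26.3, 21.97 and 8.32 CPM in Apoe-/- and at 13.2, 14.8, 6.80 and 17.8 CPM in Mif-2-/-Apoe-/- livers. As with Igf1 and Igfals, 4 Apoe-/- libraries were above every Mif-2-/-Apoe-/- library and replicate 5 was not (log2 fold change -0.94, SE 0.57, edgeR adjusted p = 0.456).

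The receptors Igf1r, which carries the IGF-1 signal, and Igf2r, which clears IGF-2, were low and uneven. Igf1r was at 1.92, 6.44, 3.29, 0.60 and 30.0 CPM in Apoe-/- and at 4.27, 1.14, 45.1 and 38.6 CPM in Mif-2-/-Apoe-/- livers (log2 fold change 1.40, SE 1.09, edgeR adjusted p = 0.573). Igf2r was at 3.98, 8.18, 7.98, 10.1 and 12.0 CPM in Apoe-/- and at 21.8, 13.1, 71.8 and 2.06 CPM in Mif-2-/-Apoe-/- livers (log2 fold change 1.69, SE 0.79, edgeR adjusted p = 0.321). For Igf2r, 3 of the 4 Mif-2-/-Apoe-/- libraries were above the Apoe-/- range and replicate 4 was below it. Without Apoe-/- replicate 5 and Mif-2-/-Apoe-/- replicate 2, 3 binding proteins, Igfbp2 (-1.19), Igfbp4 (-1.54) and Igfbp7 (-1.72), were called lower, in a fit chosen after seeing the data that called 5.34% of 15440 genes lower.

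Genes that are higher in female liver, where growth hormone is nearly continuous, formed a list of 23 that includes A1bg, Cux2 and Prlr. edgeR called 2 higher and 2 lower in Mif-2-/-Apoe-/- livers, beside 0.0712% and 0.0593% of all genes, and DESeq2, which gave no adjusted p for 2 of them, called 3 higher and 4 lower, beside 2.75% and 2.52%. At an unadjusted p under 0.05, 4 were higher and 6 lower, beside 8.99% and 6.52%. The list was thus split in direction, with a median of 0.17 (12 above and 11 below 0) that turned to -0.03 with TMMwsp. It was picked with earlier results of these libraries known, including those of Cyp2b9, Cyp2b13 and A1bg, and its counts are no independent evidence.

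Cyp2b13 and Cyp2b9, P450 enzymes of female liver, were the 2 called higher. Cyp2b13 was at 0.14, 0.94, 2.35, 0.40 and 3.87 CPM in Apoe-/- and at 673, 189, 246 and 501 CPM in Mif-2-/-Apoe-/- livers (log2 fold change 8.12, SE 0.76, edgeR adjusted p = 0.00026). Cyp2b9 was at 0.55, 2.01, 4.23, 13.3 and 2.32 CPM in Apoe-/- and at 1198, 312, 426 and 955 CPM in Mif-2-/-Apoe-/- livers (log2 fold change 7.35, SE 0.80, edgeR adjusted p = 0.00089). Both were close to absent in every Apoe-/- liver and their libraries were far apart, and 9.29% of the 100-base stretches of Cyp2b13 were shared with other genes, Cyp2b9 among them.

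Cyp4a14, a fatty acid omega-hydroxylase, was called lower together with A1bg. It was at 343, 487, 484, 769 and 404 CPM in Apoe-/- and at 163, 153, 65.8 and 107 CPM in Mif-2-/-Apoe-/- livers (log2 fold change -2.03, SE 0.36, edgeR adjusted p = 0.0450). The ranges did not overlap, although the call was kept in only 2 of the 9 fits that left out 1 library, those without Apoe-/- replicate 5 or Mif-2-/-Apoe-/- replicate 2. Sult2a1, a sulfotransferase of steroids and bile acids, was at 65.6, 79.1, 30.5, 42.3 and 13.2 CPM in Apoe-/- and at 0.20, 10.8, 1.51 and 0.46 CPM in Mif-2-/-Apoe-/- livers. Its ranges did not overlap either, and the log2 fold change was -3.99 (SE 1.0, edgeR adjusted p = 0.136, DESeq2 adjusted p = 0.0026).

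Genes that are higher in male liver formed a list of 22, including Mup20 and Bcl6, of which 20 were tested. Cyp4a12b and Moxd1 did not pass the filter on low counts. edgeR called none in either direction, DESeq2, which gave no adjusted p for 5 genes of the list, called 1 higher (Selenbp2) and 4 lower (Cyp2d9, Elovl3, Mup1 and Mup11), beside 2.75% and 2.52% of all genes. At an unadjusted p under 0.05 edgeR had 1 higher and 7 lower, beside 8.99% and 6.52%. Among the 7 lower were the major urinary protein genes Mup20, Mup1, Mup3 and Mup11, and reads of such similar genes could be assigned in part to each other. Like the female-biased list, this list was picked with earlier results of these libraries known, and its counts are no independent evidence. The median of the 20 was -0.67, with 7 above and 13 below 0, beside 0.17 over all genes (-0.83 with TMMwsp). Some of the genes in this median were close to absent in both genotypes. Among them were Cyp4a12a (means of 0.27 and 0.47 CPM in Apoe-/- and Mif-2-/-Apoe-/- livers), Ugt2b38 (0.62 and 0.13 CPM) and Susd4 (0.95 and 0.73 CPM), whose fold changes say little.

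**Figure D4:**
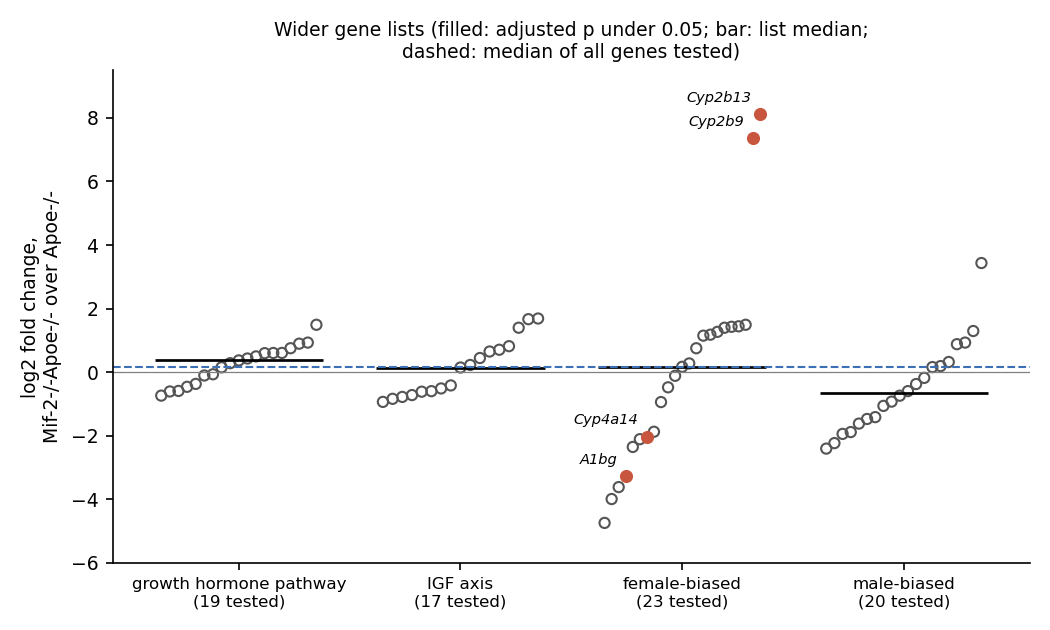
Log2 fold change, Mif-2-/-Apoe-/- over Apoe-/- (vertical axis), of each tested gene in 4 lists, sorted within a list, with filled points for an edgeR adjusted p under 0.05, black bars at the list medians and a dashed line at the median of all genes tested, 0.17. The only filled points are Cyp2b13, Cyp2b9, Cyp4a14 and A1bg in the female-biased list, and the male-biased median is -0.67.

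Cyp2d9, a steroid hydroxylase of male liver, was at 256, 275, 219, 255 and 102 CPM in Apoe-/- and at 73.8, 114, 38.6 and 62.4 CPM in Mif-2-/-Apoe-/- livers (log2 fold change -1.62, SE 0.39, edgeR adjusted p = 0.128, DESeq2 adjusted p = 0.0028). Elovl3, a fatty acid elongase, was at 30.2, 40.8, 27.7, 34.7 and 17.0 CPM in Apoe-/- and at 6.51, 2.27, 2.52 and 10.97 CPM in Mif-2-/-Apoe-/- livers (log2 fold change -2.41, SE 0.63, edgeR adjusted p = 0.141, DESeq2 adjusted p = 0.0012). Elovl3 had no overlap, while Cyp2d9 overlapped through Apoe-/- replicate 5 and Mif-2-/-Apoe-/- replicate 2 as Mup20 did. Mup11, another major urinary protein, was at 20.4, 26.5, 23.0, 26.4 and 7.16 CPM in Apoe-/- and at 5.29, 8.52, 2.77 and 5.94 CPM in Mif-2-/-Apoe-/- livers (log2 fold change -1.89, SE 0.66, edgeR adjusted p = 0.204, DESeq2 adjusted p = 0.0182). It shared 70.6% of its 100-base stretches with other Mup genes. Cyp2d9, Mup20 and Mup11 each had their lowest Apoe-/- value in replicate 5 and their highest Mif-2-/-Apoe-/- value in replicate 2, the libraries apart in the hepatocyte markers. Elovl3 was also lowest in Apoe-/- replicate 5, but its value in Mif-2-/-Apoe-/- replicate 2 was the lowest of that genotype. Without both libraries, a setting chosen after seeing the data, edgeR called 7 of the male-biased genes, 1 higher and 6 lower, where it called 3.37% and 5.34% of all genes higher and lower.

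**Figure D5:**
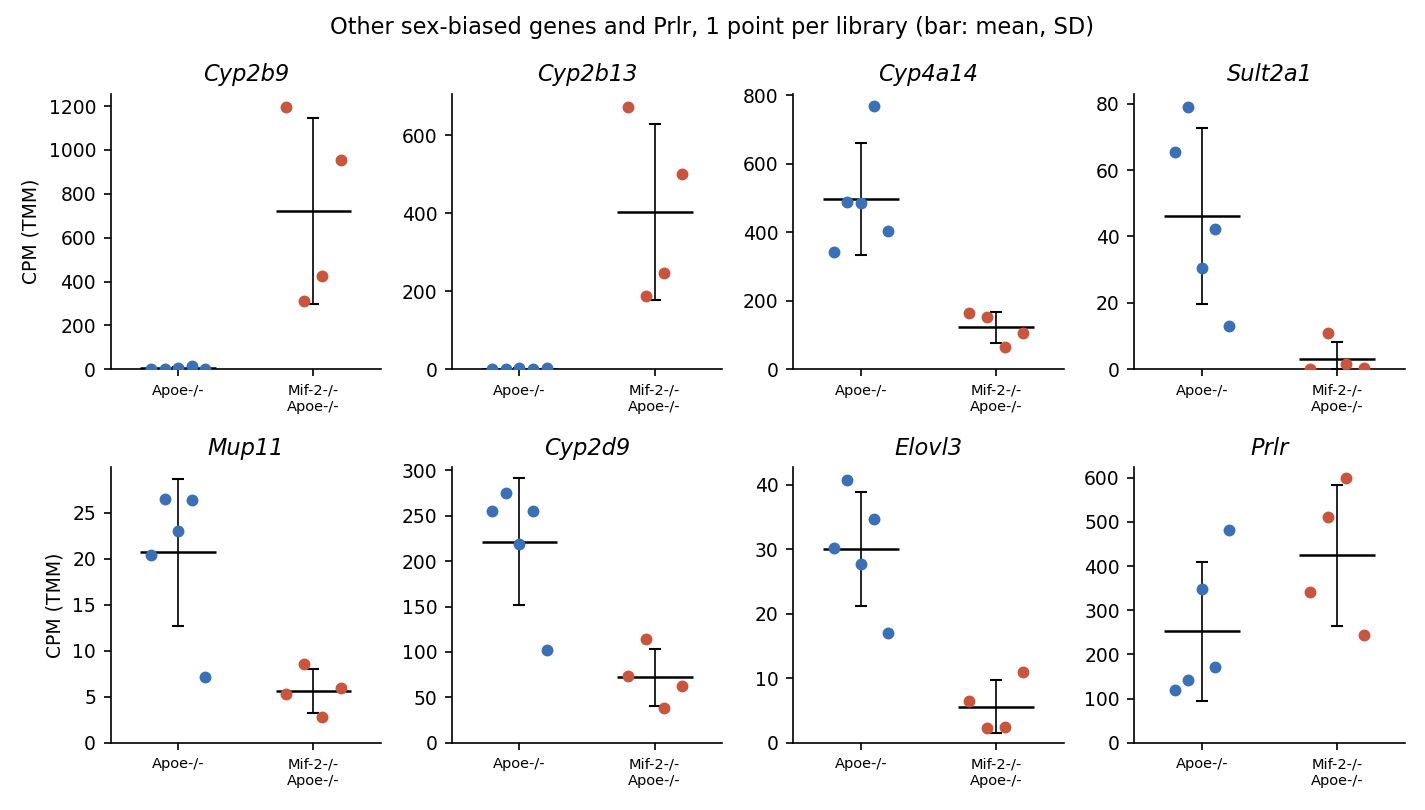
CPM (vertical axis, from 0, own scale for each gene) of 7 further sex-biased genes and Prlr in 5 Apoe-/- and 4 Mif-2-/-Apoe-/- livers, with 1 point per library, a horizontal bar at the mean and whiskers of 1 SD that are drawn only down to 0. Cyp2b9 and Cyp2b13 are near 0 in all Apoe-/- libraries, and Cyp4a14, Sult2a1 and Elovl3 have ranges that do not overlap in the other direction.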

How the data were processed

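RNA of 5 Apoe-/- and 4 Mif-2-/-Apoe-/- livers was purified on oligo-dT beads and made into Smart-seq2 libraries. The authors trimmed reads with cutadapt and aligned them with HISAT2 to mm10, per the labels, and deposited whole-number counts per Entrez gene, not normalized. The counter and its strand setting are not given in the sources used here. The study gives 4 mice per group for these sections. The labels hold 5 Apoe-/- libraries and tie none to a mouse, and all were kept. A second header line (1) was left out, no sample column was unused, and 25275 of 27179 identifiers matched a RefSeq symbol. No 2 libraries were identical. If libraries shared a mouse, p-values measure in part technical spread.

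Genes detected (1 count or more) in 3 or more libraries of a genotype were kept and the 10 most abundant left out, a filter that the study's methods give for its liver lysates and not for these sections. edgeR 4.0.16 (R 4.3.3, TMM, quasi-likelihood, Benjamini-Hochberg adjustment) was the main test. Tested on simulated data with the same spread for every gene, it found known changes at a moderate spread. It found none at a spread near the average over all genes here. Single genes of these libraries differ in their spread, so the simulation does not say which changes could be found in a given gene. DESeq2, the study's tool, was an alternative, here in version 1.42.0. Exon lengths and 100-base stretches came from GENCODE transcripts of GRCm38, and promoters from RefSeq. The 10 members and all lists were chosen with earlier results of these data known. Named beside the members were the called genes of each list and the 3 of at least 10 CPM on average with the largest fold change. The replicate numbers did not pair the libraries. The values of 1 gene of the pathway list are not reported here.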

Additional observations from a re-analysis of the deposited data

Results flagged for a closer look

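Single libraries stood apart from the rest of their genotype in 6 of 44 groups of values (22 genes, 2 genotypes). For normally distributed values chance gives about 1 in 20, but CPM need not be so distributed. The genes were also named in part for large fold changes, so nothing is read from this share. Bcl6 was at 28.9 CPM in Mif-2-/-Apoe-/- replicate 1 and at 2.27 to 5.54 CPM in its other libraries. Mup20 was at 87.5 CPM in Apoe-/- replicate 4 against 25.7 to 41.8 CPM, and Cyp2b9 at 13.3 CPM in the same library against 0.55 to 4.23 CPM. Irs2 at 49.4 CPM and Igf1r at 30.0 CPM were high in Apoe-/- replicate 5, where the other Apoe-/- libraries had 0 to 8.58 and 0.60 to 6.44 CPM. Sult2a1 was at 10.8 CPM in Mif-2-/-Apoe-/- replicate 2 against 0.20 to 1.51 CPM. Apoe-/- replicate 5 and Mif-2-/-Apoe-/- replicate 2 are the libraries that lay apart in the hepatocyte marker sum, and the part of the markers in these values was not tested.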

How the results depend on the processing

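The fold changes of 9 of the 10 growth hormone genes kept their sign under all 19 alternatives. That of Bcl6 did under 18, and ranged from -0.38 (without Mif-2-/-Apoe-/- replicate 1) to 1.18 with 1 library left out. Their median lay between -0.62 and -0.27. A1bg ranged from -3.56 to -2.96 and was called in 4 of 9 fits with 1 library left out. With TMMwsp factors the median of all genes moved from 0.17 to -0.0015, and those of the IGF axis and the female-biased list to -0.07 and -0.03. Of all genes, 22 were called, and 580 with the replicate block, 739 by DESeq2, 9 to 262 with 1 library left out (126 without Apoe-/- replicate 5, 262 without Mif-2-/-Apoe-/- replicate 2, 9 without Apoe-/- replicate 3), and 1345 without Apoe-/- replicate 5 and Mif-2-/-Apoe-/- replicate 2, a setting chosen after seeing the data. The number of growth hormone genes called, 1, became 0 with the hepatocyte covariate, 0 to 1 with 1 library left out and 2 without both libraries. Female-biased calls, 4, were 7 by DESeq2, 2 to 6 with 1 library left out and 7 without both libraries. Male-biased calls, 0, were 4 with the replicate block, 5 by DESeq2, 0 to 2 with 1 library left out and 7 without both libraries. IGF axis calls, 0, were 3 without both libraries. The cause was not tested. The replicate block, over 8 libraries, changed no call among the 10 genes, and 0 libraries correlated best with their own number (deviations correlated from -0.03 to 0.14). The smallest library, with 2318148 counts, limits genes as low as Bcl6.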
